A study of Mus musculus with 15 samples.

Results

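The 10 genes described are the cyclin-dependent kinase inhibitors Cdkn1a, Cdkn1b, Cdkn2a, Cdkn2b and Cdkn2c, the p53 gene Trp53, its negative regulator Mdm2, the p53-responsive genes Ccng1 and Gadd45a, and the lamin B1 gene Lmnb1. They were chosen by gene name from 37991 identifiers in the count table, with earlier results of these data known. They were followed by RNA-seq of whole liver in 3 groups of 5 female C57BL/6 mice: young WT mice of 90 days, old WT mice of 600 days, and old KO mice of 600 days that lacked S6K1 (ribosomal S6 kinase 1, encoded by Rps6kb1) in the whole body. The mice came from heterozygous breeding, each library was 1 animal, and there was no young KO group, so genotype was compared at 600 days only. Libraries are named by group and the number in their label (young WT 1, 2, 3, 4 and 6, old WT 1, 4, 5, 7 and 10, old KO 1, 2, 4, 5 and 6), and a number does not link animals of different groups.

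Progress from G1 into S phase is driven by cyclin-dependent kinases, which phosphorylate the retinoblastoma protein and release E2F factors. The CIP/KIP inhibitors p21 (Cdkn1a) and p27 (Cdkn1b) bind cyclin-kinase complexes, whereas the INK4 proteins p16 (from Cdkn2a), p15 (Cdkn2b) and p18 (Cdkn2c) bind CDK4 and CDK6 directly. Cdkn2a also encodes p19 ARF in another reading frame, which restrains MDM2, the ubiquitin ligase that keeps p53 low. Stressed cells stabilise p53, which induces Cdkn1a, Mdm2, Ccng1 and Gadd45a among many genes. A rise of the inhibitors and a loss of lamin B1, a filament protein of the nuclear envelope, are widely used as marks of cellular senescence. Most hepatocytes of an adult liver are quiescent, and hepatic p21 mRNA is also known to respond to glucocorticoids, fasting and the circadian clock.

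Total counts were 21801754 (young WT 6) to 38065359 (young WT 1), and 14258 genes passed the filter on low counts and were tested. Of the 10 genes 8 passed, and Cdkn2a and Cdkn2b did not. The targeted gene Rps6kb1 had 34.6 to 45.4 CPM (the count relative to the TMM-scaled library size) in old WT livers and 15.2 to 20.8 CPM in old KO livers (log2 fold change -1.17, adjusted p = 8.54e-06 by edgeR's quasi-likelihood test with Benjamini-Hochberg adjustment, as for every adjusted p given here unless stated). Exons of Rps6kb1 overlap Rnft1, a protein-coding gene on the other strand, and the strand setting of the counting was not given. The source of the Rps6kb1 counts left in old KO livers was not tested. Markers of hepatocytes dominated every library, with 9 genes summing to 78021 to 145409 CPM. In whole tissue a smaller number of cells of a type and less RNA per cell cannot be told apart.

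The promoters of the genes that the results turn on are shown for the p53 half-site, a 10-base consensus that equals its own reverse complement, so that both strands are read at once. A full p53 element holds a pair of half-sites. Windows came from the RefSeq promoter table (assembly GRCm38.p6, 250 bases before to 50 bases after each start). Lmnb1 was left out before the search, and whether a window of it holds a decamer was not read. The other 9 of the 10 genes had 12 windows. A half-site decamer lay in 5 of the 12 windows (41.7%), against 2745 of 32851 windows of all genes (8.36%). The 5 were windows of Cdkn1a, Mdm2, Ccng1, Gadd45a and Trp53, and a match is a description of these letters and not a measured binding site. The 250 bases before the start are printed 5′ to 3′ for the 4 p53-responsive genes, with decamers in capitals, as they read in the NCBIM37 genome to which the counts refer (chr17:29227674-29227923 plus strand for Cdkn1a, chr10:117147815-117148064 minus strand for Mdm2, chr11:40568789-40569038 minus strand for Ccng1, chr6:66987402-66987651 minus strand for Gadd45a).
Cdkn1a: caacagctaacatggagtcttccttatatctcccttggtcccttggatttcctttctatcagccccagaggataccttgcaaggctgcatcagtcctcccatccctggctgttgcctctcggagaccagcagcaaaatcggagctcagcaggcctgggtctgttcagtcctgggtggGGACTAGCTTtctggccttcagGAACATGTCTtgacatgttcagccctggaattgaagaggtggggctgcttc
Mdm2: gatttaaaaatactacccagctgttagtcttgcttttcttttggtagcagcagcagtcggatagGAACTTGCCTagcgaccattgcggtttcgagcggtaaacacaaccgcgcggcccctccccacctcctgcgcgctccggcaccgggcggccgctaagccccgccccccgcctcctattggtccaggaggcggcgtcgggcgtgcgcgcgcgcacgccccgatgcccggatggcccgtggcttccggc
Ccng1: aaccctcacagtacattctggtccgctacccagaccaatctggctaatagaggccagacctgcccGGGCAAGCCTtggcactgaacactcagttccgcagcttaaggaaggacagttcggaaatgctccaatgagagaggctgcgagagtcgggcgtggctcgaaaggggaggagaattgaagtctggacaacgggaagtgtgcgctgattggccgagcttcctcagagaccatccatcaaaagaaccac
Gadd45a: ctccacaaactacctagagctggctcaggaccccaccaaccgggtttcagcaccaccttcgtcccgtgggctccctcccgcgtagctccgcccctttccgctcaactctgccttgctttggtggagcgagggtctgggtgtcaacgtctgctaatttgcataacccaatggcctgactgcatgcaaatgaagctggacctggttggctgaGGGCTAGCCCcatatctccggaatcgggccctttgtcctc
Cdkn1a alone of these 4 held a pair of decamers, 73 and 51 bases before the start printed here, counted to the first base of each. The pair is not adjacent, and whether it forms a full element was not tested. The second decamer is followed directly by tgacatgttc, which departs from the consensus at its first base and so is not in capitals. Such near matches were not searched for. Another Cdkn1a window, of a start further downstream (chr17:29230464-29230763 plus strand), held no decamer. The decamer lay 186 bases before the start of Mdm2, 185 before that of Ccng1 and 40 before that of Gadd45a. Bases outside the windows were not searched, so p53 sites elsewhere in these genes are not shown.

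Per length, Cdkn1a was the most abundant of the 10 genes in each group, with 36.9 ± 17.7 RPKM (CPM divided by exon length) in young WT, 21.3 ± 7.59 in old WT and 25.3 ± 20.1 in old KO livers (SD, n = 5). Ccng1 was next, at 12.3 ± 1.16, 16.5 ± 2.31 and 13.3 ± 0.912 RPKM, and the libraries' ranges of the pair overlapped in every group. Mdm2 (8.08, 7.14 and 6.27 RPKM) and Cdkn1b (5.57, 5.89 and 7.04 RPKM) came next, with overlapping ranges and in the opposite order in old KO livers. Trp53 followed at 4.51, 4.07 and 4.02 RPKM and Cdkn2c at 2.44, 3.19 and 2.93 RPKM, with ranges that met in both old groups but not in young WT. Gadd45a (0.695, 1.54 and 1.62 RPKM) was below Lmnb1 (1.25, 1.40 and 1.49 RPKM) without overlap in young WT livers, and the ranges of the pair overlapped in both old groups. Cdkn2a (0.0588, 0.206 and 0.211 RPKM) and Cdkn2b (0.0561, 0.120 and 0.169 RPKM) were lowest, and their ranges overlapped each other in every group. The plot of levels by library shows these differences in level and in spread.

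**Figure D1:**
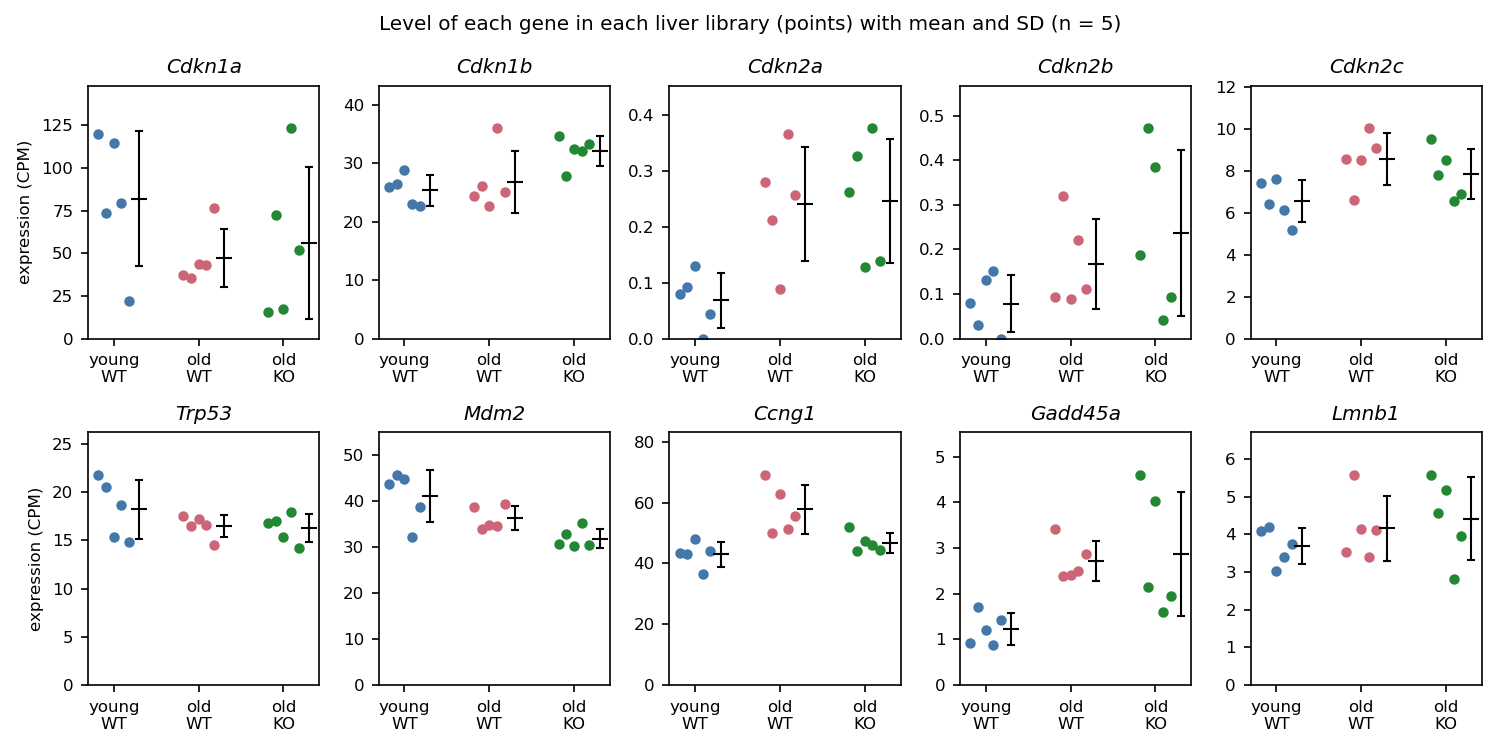
Expression in CPM (vertical axes, linear from 0) of the 10 genes in young WT, old WT and old KO livers, with 1 point per animal and the mean and SD of 5 beside them. Ccng1 and Gadd45a separate young WT from old WT livers without overlap, Cdkn1a spans 15.5 to 123 CPM among old KO livers, and Cdkn2a and Cdkn2b stay under 0.5 CPM.

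The first question was how these genes change with age in WT liver. Ccng1 and Gadd45a rose with age, Ccng1 by 1.34-fold and Gadd45a by 2.22-fold, and neither group of livers overlapped the other. These were 2 of the 8 tested genes, and 18.8% of all genes tested passed the same test (9.92% higher, 8.91% lower). Ranges without overlap were found for 11.4% of all genes. At an unadjusted p under 0.05 there were 3 of the 8, with Cdkn2c the third, against 33% of all genes. The other 6 genes did not pass, among them Trp53 itself, its regulator Mdm2 and Lmnb1. The fitted log2 fold change was above 0 for 5 of the 8 (51.2% of all genes), with a median of 0.12 against 0.01 over all genes tested. The count of 2 was 2 or 3 in the 15 fits that left out 1 library.

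Ccng1 (ENSMUSG00000020326, NCBIM37 chr11:40562054-40568813, minus strand) encodes cyclin G1, which recruits a phosphatase to MDM2 and takes part in p53 feedback. Its level in young WT livers 1, 2, 3, 4 and 6 was 43.4, 43.1, 48.0, 36.7 and 44.1 CPM. In old WT livers 1, 4, 5, 7 and 10 it was 69.3, 49.9, 62.8, 51.4 and 55.6 CPM. In old KO livers 1, 2, 4, 5 and 6 it was 52.0, 44.0, 47.5, 46.1 and 44.5 CPM. All 5 old WT livers lay above all 5 young WT livers, and only old KO 1 lay within the old WT range. The means were 43.1 ± 4.08, 57.8 ± 8.11 and 46.8 ± 3.20 CPM (SD, n = 5). The log2 fold change with age was 0.42 (SE 0.0948, 95% interval 0.22 to 0.63, adjusted p = 0.00662), and it passed in all 15 fits that left out 1 library (0.35 to 0.48).

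Gadd45a (ENSMUSG00000036390, NCBIM37 chr6:66985090-66987451, minus strand) encodes a stress-induced protein of cell cycle arrest and DNA repair. Young WT livers had 0.921, 1.71, 1.21, 0.874 and 1.42 CPM, and old WT livers 3.41, 2.38, 2.42, 2.49 and 2.87 CPM, in the order of their numbers. Old KO livers had 4.61, 2.14, 4.03, 1.59 and 1.95 CPM. Every old WT liver lay above every young WT liver, and the old KO livers fell on both sides of the old WT range, with 2 above it and 3 below. The rise with age was 1.15 on the log2 scale (SE 0.284, adjusted p = 0.0115) and passed in all 15 fits that left out 1 library (1.04 to 1.31). These levels are low, at 190 counts over the 5 young WT livers and 403 over the 5 old WT livers. Exons of the gene overlap E230016M11Rik, a noncoding RNA on the other strand, and the strand setting of the counting was not given in the sources used here. That noncoding RNA had 251 counts over young WT and 235 over old WT livers.

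The kinase inhibitors that passed the filter did not pass the test of age. Cdkn2c (p18; NCBIM37 chr4:109333481-109339794, minus strand) had 7.42, 6.44, 7.60, 6.12 and 5.17 CPM in young WT livers and 8.56, 6.61, 8.50, 10.04 and 9.12 CPM in old WT livers. The means were 6.55 ± 0.994 and 8.57 ± 1.25 CPM, and 4 of the 5 old WT livers lay above all young WT livers. Its log2 fold change was 0.38 (SE 0.138, 95% interval 0.09 to 0.68, adjusted p = 0.0620), and without young WT 3 or without old WT 4 it was 0.45 and 0.47 and passed. Cdkn1b (p27; NCBIM37 chr6:134870419-134875531, plus strand) had 25.4 ± 2.62 and 26.8 ± 5.29 CPM, where old WT 7 stood at 36.0 CPM and the other 4 old WT livers at 22.6 to 26.0 CPM. Its log2 fold change of 0.08 (95% interval -0.16 to 0.32, adjusted p = 0.667) was -0.04 without old WT 7.

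Cdkn1a (p21; ENSMUSG00000023067, NCBIM37 chr17:29227924-29237667, plus strand) varied more among livers of 1 group than between groups. Young WT livers had 120, 73.4, 115, 79.7 and 22.1 CPM, old WT livers 37.2, 35.6, 44.0, 43.2 and 76.8 CPM, and old KO livers 15.5, 72.7, 17.3, 123 and 51.7 CPM. The ratio of the highest to the lowest liver was 5.43 in young WT, 2.16 in old WT and 7.95 in old KO. No old WT liver lay outside the young WT range, which ran down to the 22.1 CPM of young WT 6. The fitted log2 fold change with age was -0.80 (SE 0.503, 95% interval -1.86 to 0.27, adjusted p = 0.286), an interval that spans both directions.

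Among the genes of the p53 pathway that did not pass with age, Trp53 (NCBIM37 chr11:69393861-69405375, plus strand) had 18.2 ± 3.08 CPM in young WT and 16.5 ± 1.15 CPM in old WT livers (log2 fold change -0.15, 95% interval -0.38 to 0.08, adjusted p = 0.353). Mdm2 (NCBIM37 chr10:117125944-117147814, minus strand) had 41.0 ± 5.66 and 36.2 ± 2.58 CPM (log2 fold change -0.18, adjusted p = 0.187). Without young WT 4, the lowest young WT liver at 32.1 CPM, its log2 fold change was -0.27 and passed. Lmnb1 (NCBIM37 chr18:56867467-56913078, plus strand) had 4.08, 4.18, 3.03, 3.40 and 3.75 CPM in young WT livers, 3.53, 5.58, 4.14, 3.41 and 4.12 CPM in old WT livers and 5.58, 4.58, 5.18, 2.81 and 3.94 CPM in old KO livers. The lowest and the highest liver of the 15 were old KO 5 and old WT 4, and the ranges of all 3 groups overlapped. The means in young WT and old WT livers were 3.69 ± 0.478 and 4.16 ± 0.865 CPM, a log2 fold change of 0.17 with a 95% interval of -0.21 to 0.55 (adjusted p = 0.543). The messenger RNA of p53 is not a measure of p53 protein, which is regulated mainly by its stability.

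Cdkn2a and Cdkn2b, neighbours on chromosome 4 (NCBIM37 chr4:88920377-88940557 and chr4:88952198-88956941, both minus strand), were too low for the fit across genes. Cdkn2a had 11 counts over the 5 young WT livers (exact Poisson 95% interval 5.49 to 19.7), 35 over the old WT livers (24.4 to 48.7) and 31 over the old KO livers (21.1 to 44.0), intervals that cover counting error only. By liver these were 0.0790, 0.0916, 0.130, 0 and 0.0431 CPM in young WT, 0.281, 0.213, 0.0895, 0.367 and 0.257 CPM in old WT, and 0.262, 0.327, 0.128, 0.377 and 0.139 CPM in old KO. The 0 of young WT 4 allows up to 0.0904 CPM (3 counts). In each old group 4 of 5 livers lay above all young WT livers. An exact 2-sided permutation test of log2(CPM + 0.1) gave p = 0.0238 for age, p = 0.0159 for old KO against young WT and p = 0.960 for genotype, of which the smallest possible is 0.00794. These are unadjusted, of 6 such tests on the pair of genes. In a fit of 24668 genes with no filter on low counts the adjusted p of Cdkn2a was 0.0603 for age (log2 fold change 1.72) and 0.0475 for old KO against young WT (1.77). Gene-level counts do not separate the p16 and p19 ARF transcripts.

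Cdkn2b had 13, 24 and 30 counts over the young WT, old WT and old KO livers. Its level spanned 0 to 0.151 CPM in young WT, 0.0895 to 0.320 CPM in old WT and 0.0419 to 0.472 CPM in old KO livers, and the ranges overlapped. The 0 was in young WT 6 and allows up to 0.129 CPM. The exact permutation test gave p = 0.135 for age, p = 0.619 for genotype and p = 0.127 for old KO against young WT. In the fit with no filter on low counts its log2 fold change was 0.98 for age (adjusted p = 0.421) and 1.51 for old KO against young WT (unadjusted p = 0.0334, adjusted p = 0.158).

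The second question was whether loss of S6K1 changes these genes in old liver. None of the 8 tested genes passed, where 0.533% of all genes tested did (0.112% higher, 0.421% lower), and none passed under any alternative, DESeq2 included, or without any 1 library. At an unadjusted p under 0.05 there were 2 of the 8, Ccng1 and Cdkn1b, against 11.6% of all genes. None of the 8 had ranges without overlap, against 3.2% of all genes. The fitted log2 fold change was above 0 for 4 of the 8 (50.2% of all genes), with a median of 0.03 over the 8 and 0.00 over all genes. The old WT libraries enter both the comparison of age and that of genotype, so values of opposite sign in the 2 comparisons are not independent of each other.

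Ccng1 was lower in old KO than in old WT livers by 0.30 on the log2 scale (95% interval -0.51 to -0.10, unadjusted p = 0.00534, adjusted p = 0.183), and 4 of 5 old KO livers lay below every old WT liver. Its old KO level did not separate from young WT either (log2 fold change 0.12, 95% interval -0.08 to 0.32, adjusted p = 0.383). Cdkn1b had 34.7, 27.8, 32.5, 32.1 and 33.3 CPM in old KO livers and 24.4, 26.0, 22.6, 36.0 and 24.99 CPM in old WT livers. Apart from old WT 7, every old WT liver lay below every old KO liver, a log2 difference of 0.26 (95% interval 0.02 to 0.50, unadjusted p = 0.0376, adjusted p = 0.390). Mdm2 had 30.6, 32.7, 30.2, 35.1 and 30.4 CPM in old KO livers and 38.6, 33.8, 34.8, 34.5 and 39.4 CPM in old WT livers, with 4 of 5 old KO livers below every old WT liver (log2 fold change -0.19, 95% interval -0.38 to 0.01, adjusted p = 0.452). This interval of Mdm2 included 0, as did those of Trp53, Cdkn2c, Lmnb1, Cdkn1a and Gadd45a. Trp53 differed by -0.02 (-0.25 to 0.21), Cdkn2c by -0.12 (-0.41 to 0.17) and Lmnb1 by 0.09 (-0.29 to 0.47). For Cdkn1a the value was 0.25 with a wide 95% interval of -0.82 to 1.31, and it was -0.28 without old KO 5, the liver at 123 CPM. The interval of Gadd45a, 0.08 (-0.50 to 0.66), also spanned both directions, and its value was -0.16 without old KO 1.

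Old KO livers were also set against young WT livers, where effects of age and of genotype cannot be told apart. Here 3 of the 8 genes passed, 2 higher and 1 lower, where 23.3% of all genes did (12% higher, 11.3% lower). The same 3 were those at an unadjusted p under 0.05, against 36.8% of all genes. None of the 8 had ranges without overlap, against 13.9% of all genes, and the fitted value was above 0 for 5 of the 8, against 49.4%. Gadd45a rose by 1.23 on the log2 scale (SE 0.286, adjusted p = 0.00638), although old KO 5 at 1.59 CPM lay within the young WT range. Mdm2 had 43.7, 45.7, 44.7, 32.1 and 38.7 CPM in young WT livers and fell by 0.37 on the log2 scale (SE 0.0920, adjusted p = 0.0101), with 3 of 5 old KO livers below every young WT liver, and passed in all 15 fits that left out 1 library. Cdkn1b had 25.9, 26.5, 28.9, 22.9 and 22.6 CPM in young WT livers and rose by 0.34 on the log2 scale (SE 0.114, adjusted p = 0.0427), with 4 of 5 old KO livers above every young WT liver. The Cdkn1b call held in 6 of 15 leave-outs and was lost without young WT 1, 2, 4 or 6, old WT 4 or old KO 1, 4, 5 or 6, where the log2 fold change was 0.30 to 0.35.

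**Figure D2:**
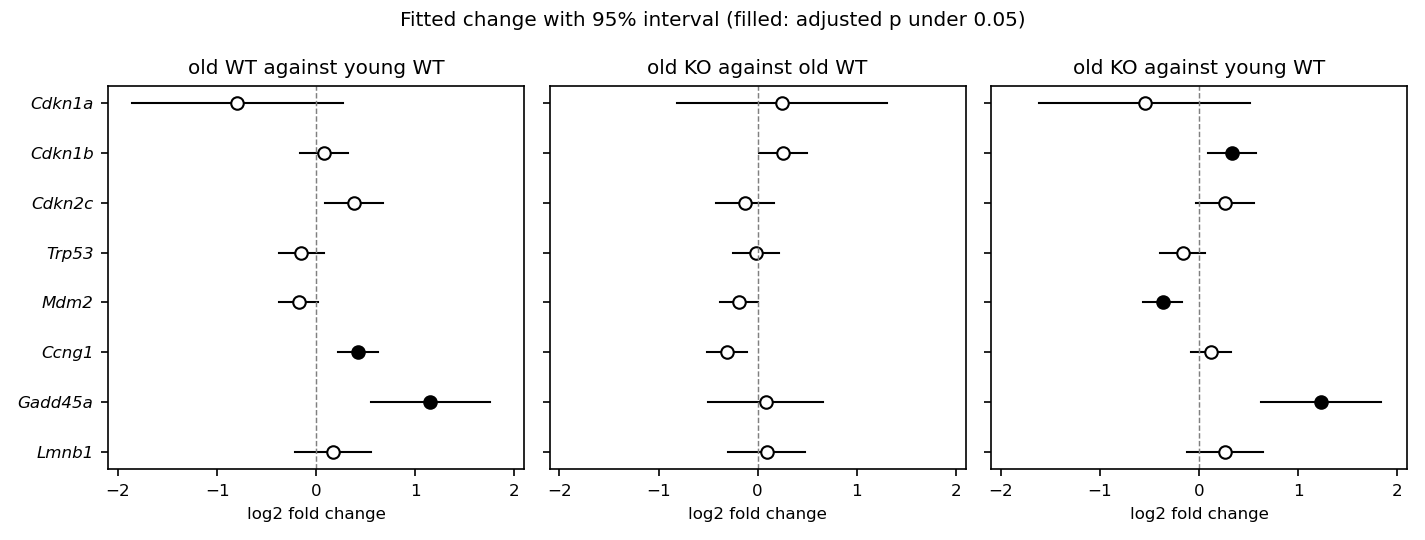
Fitted log2 fold change (horizontal axes) with its 95% interval for the 8 tested genes in 3 comparisons, filled where the adjusted p is under 0.05. Ccng1 and Gadd45a are filled for age, none is filled for genotype, and Cdkn1b, Mdm2 and Gadd45a are filled for old KO against young WT. The Cdkn1a intervals are the widest of the 8 in all 3 panels.

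The spread among livers of 1 group differed widely between the 8 genes. After the group means were subtracted, the SD of the log2 CPM of Cdkn1a was 0.979, larger than that of 99.0% of the genes tested. The same SD was 0.458 for Gadd45a (82.6%), 0.295 for Lmnb1 (62.8%), 0.221 for Cdkn2c (48.1%), 0.186 for Cdkn1b (38.5%), 0.172 for Trp53 (33.8%), 0.151 for Ccng1 (25.4%) and 0.146 for Mdm2 (23.2%), with a median of 0.229 over all genes. The 5 genes with a p53 half-site in a window lay on both sides of the median. Cdkn1a and Gadd45a were among the more variable genes, and Trp53, Ccng1 and Mdm2 among the less variable. Counting error adds more to the SD of a gene with few counts, and the ranks are not adjusted for level. The mean log2 CPM was 1.08 for Gadd45a, 2.03 for Lmnb1 and 5.68 for Cdkn1a, against a median of 3.55 over all genes.

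For each tested member the 5 other genes most like it were found by Pearson's r of log2 CPM over the 15 livers, group means subtracted. The genes were picked for a high r among 14258, so the values are descriptions. For Cdkn1a they were Slc45a3 (r = 0.93), Gja4 (0.91), Lpin1 (0.90), 1110003O08Rik (0.89) and Hmox2 (0.87). Lpin1, which encodes lipin 1 and is known to be induced in liver by fasting and glucocorticoids, had 36.0 to 337 CPM in young WT, 29.0 to 62.3 CPM in old WT and 36.0 to 191 CPM in old KO livers. Young WT 6 was the lowest young WT liver for both Cdkn1a and Lpin1, and old KO 5 the highest old KO liver for both. Young WT 6 also stood apart as a whole library, and it had the lowest total count. Its chi-square per degree of freedom with the other young WT libraries was 74.7 to 98.4, against 27.8 to 58.1 for the other pairs of that group. Without young WT 6 and old KO 5, the livers farthest from the median for Cdkn1a, r was 0.86 for Slc45a3 and 0.82 for Lpin1.

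Cdkn1a was then set against the genes of whole lists. The lists were chosen with earlier results of these data known, so the values are descriptions and not tests. All 16 glucocorticoid-responsive genes tested had r above 0 with Cdkn1a, with a median of 0.51, where 48.9% of all other genes did and the median was -0.01. The 8 with r over 0.5 (against 7.09% of all genes) were Mt2 (0.86), Fkbp5 (0.78), Mt1 (0.74), Klf9 (0.67), Cebpd, Tat, Angptl4 and Dusp1. Mt2, a metallothionein that binds zinc, had 31.6 to 340 CPM in young WT livers, 38.1 to 274 CPM in old WT livers and 33.3 to 188 CPM in old KO livers. Its r with Cdkn1a was 0.91, 0.93 and 0.93 within young WT, old WT and old KO livers, 5 each. Spearman's rho was 0.91 over the 15 livers, and r was 0.83 without young WT 6 and old KO 5. Of the 29 p53 target genes tested 17 had r above 0 with Cdkn1a, with a median of 0.08 and a highest value of 0.56. Of 18 clock genes 12 had r above 0, from -0.63 to 0.67. The list genes vary together in the same livers and are not independent points, and the time of day at collection was not given in the sources used here. The study's methods state free access to food, and whether food was withdrawn before collection was not given there.

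**Figure D3:**
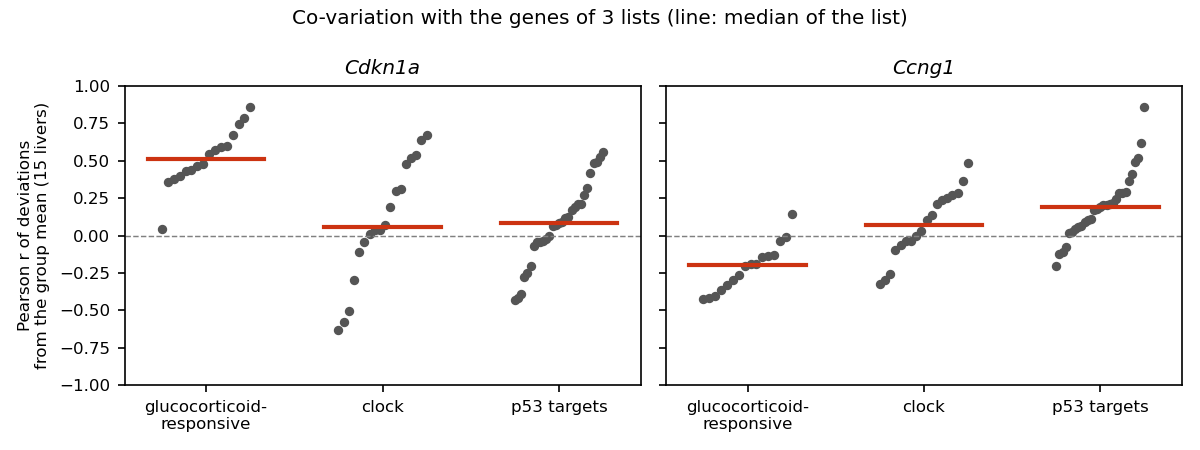
Pearson's r (vertical axes, 15 livers, group means subtracted) of Cdkn1a and of Ccng1 with each gene of 3 lists, sorted within a list, with the list's median as a line. The lists were chosen with earlier results of these data known. For Cdkn1a the glucocorticoid-responsive genes lie above 0 with a median of 0.51 and the p53 targets around 0.08, whereas for Ccng1 the medians are -0.20 and 0.19.

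Ccng1 had a different set of companions from Cdkn1a, though its relation to the p53 targets was not particular to it. The median r with the p53 targets was 0.25 for Mdm2 and 0.16 for Gadd45a. For the other tested members it ran from -0.06 (Cdkn1b) to 0.12 (Trp53). The median with the glucocorticoid-responsive genes was 0.26 for Mdm2 and -0.33 for Gadd45a. Of the 29 p53 target genes 25 had r above 0 with Ccng1 (86.2%, against 7130 of the 14257 other genes), with a median of 0.19. Of the 16 glucocorticoid-responsive genes 1 did. The genes most like Ccng1 were Usp21 (r = 0.92), a deubiquitinase, and Eda2r (0.86), a receptor of the TNF receptor family and known p53 target, followed by Nacc2, Pdik1l and Otub2 (0.83 to 0.80). Eda2r had 0.603 to 1.24 CPM in young WT, 0.996 to 4.03 CPM in old WT and 0.789 to 1.16 CPM in old KO livers. Old WT 1 was highest for both Ccng1 and Eda2r, and old WT 4 lowest of the old WT livers for both. Without old WT 1 and young WT 4, the livers farthest from the median for Ccng1, r with Eda2r was 0.82.

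**Figure D4:**
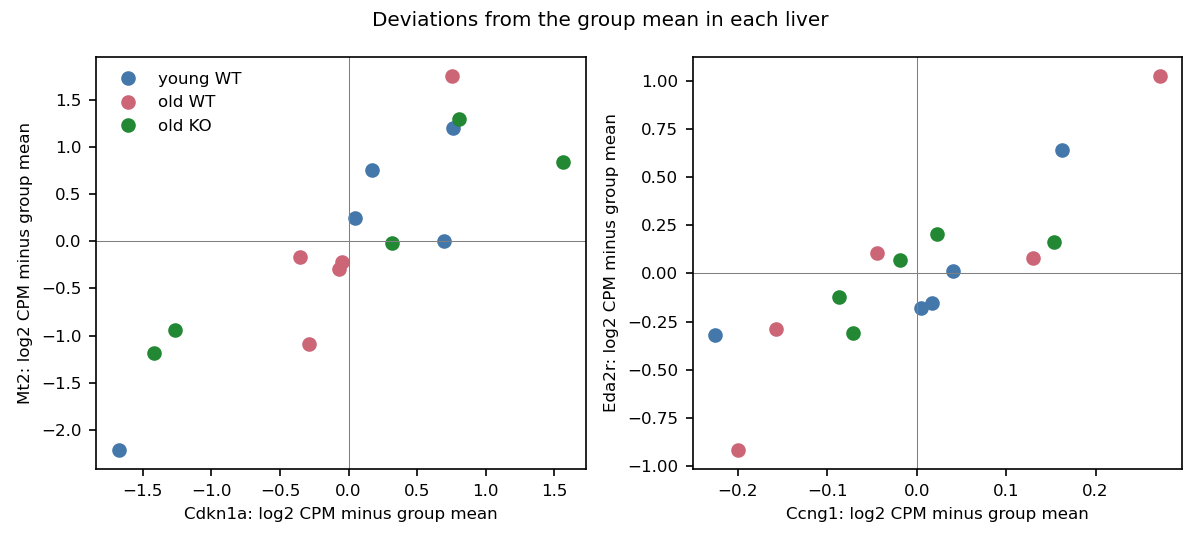
Deviation of each liver from its group mean in log2 CPM, for Mt2 against Cdkn1a and for Eda2r against Ccng1, with 1 point per animal coloured by group. The pairs were chosen after their values were seen (r = 0.86 for each), and the horizontal scale of Ccng1 is much narrower than that of Cdkn1a.

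Among the other members, Cdkn2c was most like Mppe1 (r = 0.89), Gm16702 (0.85) and Ddb2 (0.84), the last a gene of nucleotide excision repair on the p53 target list. The r of Cdkn2c with Ddb2 was 0.97, 0.90 and 0.85 within the 3 groups and 0.80 without old WT 4 and young WT 6. Cdkn1b was most like Degs1 (0.96), Brcc3 (0.92) and Elmo2 (0.90), Trp53 most like Shroom1 (0.91) and Edc4 (0.91), Mdm2 most like Myo5b (0.82), Gadd45a most like Zfp846 (0.89), and Lmnb1 most like Txnrd3 (0.80) and Alg9 (0.80). Between the members themselves the 28 values of r ran from -0.74 to 0.54 with a median of 0.08. The lowest was that of Cdkn1a with Gadd45a, at -0.97 among the old KO livers but 0.12 among the old WT livers. In old KO livers 1 and 4, Cdkn1a was at 15.5 and 17.3 CPM and Gadd45a at 4.61 and 4.03 CPM, the lowest and the highest values of that group. Lmnb1 had r below 0 with all 16 glucocorticoid-responsive genes (median -0.39), where 47.9% of all genes did. Gadd45a and Ccng1 were close to this, each with 15 of the 16 below 0 (medians -0.33 and -0.20).

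The rest of the pathway was read from lists of genes around the 10, also chosen with earlier results of these data known. With age 2 of 29 p53 target genes rose and none fell, where 18.8% of all genes passed, namely Eda2r (log2 fold change 1.44, adjusted p = 0.00562) and Phlda3 (1.15, adjusted p = 0.0112), an inhibitor of AKT. The median over the 29 was -0.06, against 0.01 over all genes. Both calls held in all 15 leave-outs. Phlda3 had 0.302 to 0.885 CPM in young WT livers and 0.843 to 1.67 CPM in old WT livers. Among the p53 regulators Chek2 (0.82) and Pml (0.38) rose and Atr (-0.34) fell with age, and each of these 3 calls was lost in 3 to 6 of 15 leave-outs.

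Of 28 cyclins, kinases and Rb and E2F genes, 3 rose and 3 fell with age, against 18.8% of all genes called (9.92% higher, 8.91% lower). E2f1 rose by 1.13 (adjusted p = 0.00913), from 0.554 to 1.55 CPM in young WT to 1.10 to 2.15 CPM in old WT livers. E2f2 (1.28) and Ccnb2 (1.25) also rose from under 1 CPM, and Ccnd3 (-0.38), Rbl2 (-0.36) and Cdk7 (-0.32) fell. E2f1 alone of the 6 passed in all 15 leave-outs. Of 24 proliferation markers 4 rose and none fell with age, namely Tpx2 (1.10), Mki67 (0.95), Tk1 (0.73, adjusted p = 0.00195) and Mcm5 (0.71), and the median of the list was 0.31, against 0.01 over all genes. Tk1 passed in all 15 leave-outs, and the other 3 were lost in 3 to 6 of them. Tk1, the salvage enzyme thymidine kinase 1, had 7.98 to 10.3 CPM in young WT and 11.2 to 17.6 CPM in old WT livers. The 3 related genes tested beside the members (of the INK4, CIP and GADD45 families) did not pass with age.

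Of 15 genes of the nuclear lamina and envelope, Syne2 alone passed with age, where 18.8% of all genes did. Syne2 rose by 0.27 (adjusted p = 0.0410), a call lost in 8 of 15 leave-outs. Of the 16 glucocorticoid-responsive genes Lcn2 alone passed with age, against the same 18.8%. Lcn2 rose by 1.71 (adjusted p = 0.0420), and the call was lost in 8 of 15 leave-outs. The median of that list was -0.53, and its members Mt1, Mt2 and Fkbp5 had log2 fold changes of -0.88, -0.86 and -0.90 that did not pass (adjusted p = 0.231, 0.344 and 0.0852). Of 18 clock genes 4 rose and 2 fell with age, where 9.92% of all genes rose and 8.91% fell. Among them were Nfil3 (1.08), Npas2 (0.99), Nr1d1 (-1.46) and Ciart (-2.39). Nr1d1 was lost in 6 of 15 leave-outs.

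For genotype no gene of these lists passed, which includes the 29 p53 targets, 28 cell cycle genes, 24 proliferation markers and 15 lamina genes. Eda2r was at -1.10 (unadjusted p = 0.00271, adjusted p = 0.143), and DESeq2 called 6 list genes for genotype. At an unadjusted p under 0.05 there were 6 of the 29 p53 targets, 10 of the 24 proliferation markers and 1 of the 16 glucocorticoid-responsive genes, against 11.6% of all genes. The fitted value was above 0 for 8 of the 29 p53 targets (median -0.07) and 5 of the 24 proliferation markers (median -0.30), against 50.2% of all genes, and for 9 of the 16 glucocorticoid-responsive genes (median 0.05). Tk1, one of the 5 proliferation markers above 0, had 16.5 to 24.2 CPM in old KO livers (log2 difference from old WT 0.44, adjusted p = 0.155). For old KO against young WT 23.3% of all genes passed (12% higher, 11.3% lower). Of the 29 p53 targets 3 passed, where Ddb2 (0.53) and Cd82 (0.35) rose and Aen (-0.67) fell. Cdkn1c, the gene of the CIP/KIP inhibitor p57, rose in the same comparison by 0.73 (adjusted p = 0.0107), and Lbr, the lamin B receptor, by 0.58 (adjusted p = 0.00562). The calls of Ddb2, Cd82, Aen, Cdkn1c and Lbr held in the 15 leave-outs. In the same comparison 5 of the 28 cell cycle genes passed, all of them lower. Of the 24 proliferation markers 3 passed and of the 15 lamina genes 2, all of them higher.

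Markers of other cells moved with the groups beside these results. With age 4 of 15 monocyte and macrophage markers, 4 of 10 T and NK cell markers and 3 of 8 B and plasma cell markers rose, and 2 of 8 endothelial markers fell, where 18.8% of all genes were called. Of 9 hepatocyte markers 2 fell with age, Cps1 (-1.27) and Apoa1 (-0.69), and the median of that list was -0.52, against 0.01 over all genes. The summed level of the macrophage markers was 227 to 485 CPM in young WT, 305 to 693 CPM in old WT and 176 to 278 CPM in old KO livers. The T and NK cell markers summed to 3.21 to 7.46, 5.69 to 13.2 and 3.26 to 9.06 CPM in the same order. With genotype 6 of the 15 macrophage markers fell, where 0.533% of all genes were called (0.421% lower). No marker of these lists was at 0 over the 15 libraries. Their part in the levels of Ccng1, Gadd45a, Cdkn2a and the proliferation markers was not tested.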

How the data were processed

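Liver RNA was extracted and poly(A) libraries were made with a stranded kit and sequenced as single-end reads. Per the submitters' processing notes and the study's methods, the authors mapped reads to mm9 with TopHat2 2.0.11 and counted them with HTSeq. The deposited table holds whole-number counts, 1 column per animal and not normalized. The annotation and the strand setting are not given in the sources used here, so counts of genes that overlap on opposite strands are uncertain, and RNA without a poly(A) tail is missed. Groups came from the sample titles, and each column matched 1 title.

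Of 37991 identifiers 37205 had a position in GENCODE M1 on NCBIM37, the build of mm9, from which symbols and exon lengths for RPKM were taken. Counts were scaled by TMM and filtered with filterByExpr in edgeR 4.0.16 under R 4.3.3, and a quasi-likelihood model was fitted to all 15 libraries, with 3 contrasts, Benjamini-Hochberg adjustment over 14258 genes and a threshold of 0.05. SE and 95% intervals are those of fitted log2 fold changes. Log2 CPM used a prior count of 2. The exact permutation test covered 252 assignments. The fit was tested on simulated data. Replicate numbers in the labels were checked as possible pairs and not used. Alternatives were RLE and upper quartile scaling, no filter, DESeq2 1.42.0, limma 3.58.1 (voom), a fit of 10 libraries, a block for the replicate number, a pseudocount of 0.5 for the permutation test, and leaving out each library.

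The 10 genes and the lists around them were chosen with earlier results of these data known. Of 239 list entries 231 matched by symbol, 7 by synonym and 1 not. The rule for named genes took the 10 genes, Rps6kb1, up to 4 genes per list with the largest change among those called for age or genotype, and the 5 genes most like each member. Rbl2, Cdk7, Cps1, Apoa1, Mt1, Mt2, Fkbp5, other list genes given with an r, and the genes other than members named for old KO against young WT were chosen after their values were seen, as was E230016M11Rik for its overlap. Promoter sequences are from RefSeq. A result of the p53 regulator list is not reported here.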

Additional observations from a re-analysis of the deposited data

Results flagged for a closer look

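Of 33 groups of 5 livers examined, 1 for each of 11 genes (Rps6kb1 included) in each of 3 groups, 2 held a liver whose gap to the nearest other was large for the range of its group. Chance gives about 1 in 20. Cdkn1a had 76.8 CPM in old WT 10, where the other old WT livers had 35.6 to 44.0 CPM. The same liver had 274 CPM of Mt2, where the other old WT livers had 38.1 to 72.3 CPM. Cdkn1b had 36.0 CPM in old WT 7, where the other old WT livers had 22.6 to 26.0 CPM. Old WT 7 also stood apart as a whole library. Its chi-square per degree of freedom with the other old WT libraries was 75.5 to 118, against 18.2 to 49.5 for the other pairs of that group. Without old WT 10 the log2 fold change of Cdkn1a with age was -1.04, and without old WT 7 that of Cdkn1b was -0.04, and neither passed.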

How the results depend on the processing

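Same-numbered livers of different groups did not deviate together (9 pairs, r -0.153 to 0.0770, median 0.00205), so the numbers were not used as pairs. With the replicate number as a block the count for age was 1 of the members (Gadd45a, 1.28, adjusted p = 0.129, was the one lost), 5 list genes and 899 of all genes, and for genotype 6 of all genes. The same block gave -0.02 for Cdkn1b with age, and 0.05 for Cdkn2c and -0.05 for Lmnb1 with genotype, each with the sign turned. DESeq2 called 6 list genes and 305 of all genes for genotype, and Cdkn2c for age (adjusted p = 0.0423). Voom called 23 of all genes for genotype and gave -0.13 for Cdkn1a and -0.03 for Gadd45a there, with the sign turned. Cdkn1b in old KO against young WT did not pass with upper quartile scaling (adjusted p = 0.0621) or no filter (0.0602).

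Leaving out 1 library gave 2 to 3 members for age, 0 to 0 for genotype and 2 to 3 for old KO against young WT. List genes numbered 15 to 34, 0 to 1 and 20 to 28, and all genes 1748 to 3284, 9 to 108 and 2460 to 3829. The permutation p of Cdkn2a ran from 0.00794 to 0.0476, from 0.492 to 1 and from 0.00794 to 0.0397, in the same order. The sign turned in some of these fits for Cdkn1b with age (-0.04 to 0.14) and, with genotype, for Cdkn1a (-0.28 to 0.49), Trp53 (-0.06 to 0.03), Gadd45a (-0.16 to 0.22), Lmnb1 (-0.01 to 0.21) and the differences of Cdkn2a and of Cdkn2b (exact permutation p 0.27 to 0.984). The causes were not tested. Of 528 values of single genes under alternatives 499 kept direction and side of the threshold. Cdkn2a and Cdkn2b had 11 to 35 counts over a group, so counting error is large for both.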
